A study of Mus musculus with 6 samples.

Results

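The histone lysine demethylases described here are 10 genes, found by gene name in a table of 34745 mouse genes: Kdm1a, Kdm1b, Kdm2b, Kdm3a, Kdm3b, Kdm4a, Kdm5a, Kdm5b, Kdm6a and Kdm6b. All 10 had enough counts to be tested among 13287 genes. RNA sequencing was done on cultured mouse spermatogonial stem cells, the germline cells that sustain sperm production. There were 3 libraries from cultures that received 100 µM bisphenol A (BPA), a plastics monomer and endocrine disruptor, for about 4 days, and 3 from untreated cultures. All of them came from postnatal day 6 mice of the cross DBA/2J X c57BL/6J, at passages 15 to 20. No vehicle is named for the untreated cultures, so a solvent effect cannot be told apart from BPA. Whether a replicate was its own culture or its own animal is not stated, and the p-values therefore reflect no more than the spread among these 6 libraries, which may be technical.

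Libraries held 14232872, 21444077 and 22286517 gene counts in BPA replicates 1 to 3, and 19183912, 13453280 and 13888739 in untreated replicates 1 to 3. BPA replicate 2 stood apart from the other BPA libraries: chi-square values over degrees of freedom were 64.2 and 84.5 for the pairs with it, 21.995 for the other BPA pair and 18.9 to 25.4 among untreated libraries. Germ cell markers such as Ddx4, Dazl, Gfra1, Ret and Zbtb16 were present, and the 10 listed summed to 1463 to 1887 TMM-scaled CPM (counts scaled to a common library total) in BPA and 1520 to 1567 CPM in untreated libraries. Of the 10, Sall4 was higher and Dnd1 and Id4 lower under BPA in edgeR, where 4.37% of all tested genes passed as higher and 6.28% as lower. The count higher was 0 without BPA replicate 1 or any 1 untreated library, and the count lower was 0 without any 1 library except BPA replicate 2. The 10 fibroblast feeder markers summed to 225 to 483 CPM in BPA and 302 to 348 CPM in untreated libraries, with Lum and Postn below 1 CPM throughout and 0 of 8 tested past the threshold. Fn1 made up most of each sum. The median log2 fold change of the 8 was -0.29, with 2 positive. Col1a2 (-0.76) and Col3a1 (-1.89) were lower in every BPA library than in any untreated one, where 2085 of 13287 tested genes were so. The count lower was 0 in limma-voom, 1 in DESeq2 and 1 without BPA replicate 2. It was 2 with GC content and gene length corrected for. The 9 Sertoli cell markers summed to 30.6 to 51.6 CPM in BPA and 19.8 to 24.98 CPM in untreated libraries. Of 4 tested, Sox9 rose and 3 did not pass, with log2 fold changes of 0.91 for Wt1, 1.88 for Gata4 and -1.91 for Amhr2. The count higher was 0 without untreated replicate 1. The defining Sertoli markers Fshr and Rhox5 had 0 counts in every library and Amh stayed below 1 CPM. Of 6 Leydig markers, 4 had 0 counts in every library. The part of these other cells in the results below was not tested. In such bulk samples, fewer cells of a type and less RNA per cell cannot be told apart.

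Histone lysine demethylases remove methyl groups from lysines of histone tails and so act against the methyltransferases that place them. The KDM1 enzymes are amine oxidases that use the cofactor FAD, whereas the KDM2 to KDM6 enzymes carry a JmjC domain and need iron, oxygen and 2-oxoglutarate. Methyl marks at lysine 4 of histone H3 go with active promoters, those at lysines 9 and 27 with silencing, and those at lysine 36 with transcribed gene bodies. In mice, germ cells remodel these marks during spermatogonial differentiation and again when chromatin is packed into sperm.

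The demethylases rose or did not pass the test, and none passed as lower. In edgeR's quasi-likelihood test, with Benjamini-Hochberg adjustment over all tested genes and a threshold of 0.05, Kdm3b, Kdm4a, Kdm5a and Kdm5b rose under BPA, which is 4 of 10, whereas 4.37% of all tested genes passed as higher. The count lower was 0 of 10, against 6.28% of all tested genes, and at an unadjusted p under 0.05 it was also 0 in edgeR, DESeq2 and limma-voom. The median log2 fold change was 0.70 over the 10 members and 0.10 over all tested genes, and after a correction of the counts for GC content and gene length, called the GC and length correction below, it was 0.42 and 0.02. Kdm1a, Kdm3b, Kdm4a and Kdm5b were higher in every BPA library than in any untreated library, where 15.6% of tested genes were so. The number that rose was 5 in DESeq2, where 7.06% of all genes passed as higher, and 5 without BPA replicate 2, where 8.81% did, in both cases with Kdm1a added. It was 3, without Kdm5a, in limma-voom (3.81% of all genes) and after the GC and length correction (6.77%). It was 2 without untreated replicate 1 (Kdm4a and Kdm5b), where 1.18% of all genes passed as higher. The members were chosen with earlier results of these data known, so these shares only describe them and are no test of the family. Of 16 other histone demethylases and JmjC proteins, 0 passed as higher in edgeR. Their log2 fold change was positive for 12 of the 16, as it was for 7363 of all 13287 tested genes.

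**Figure D1:**
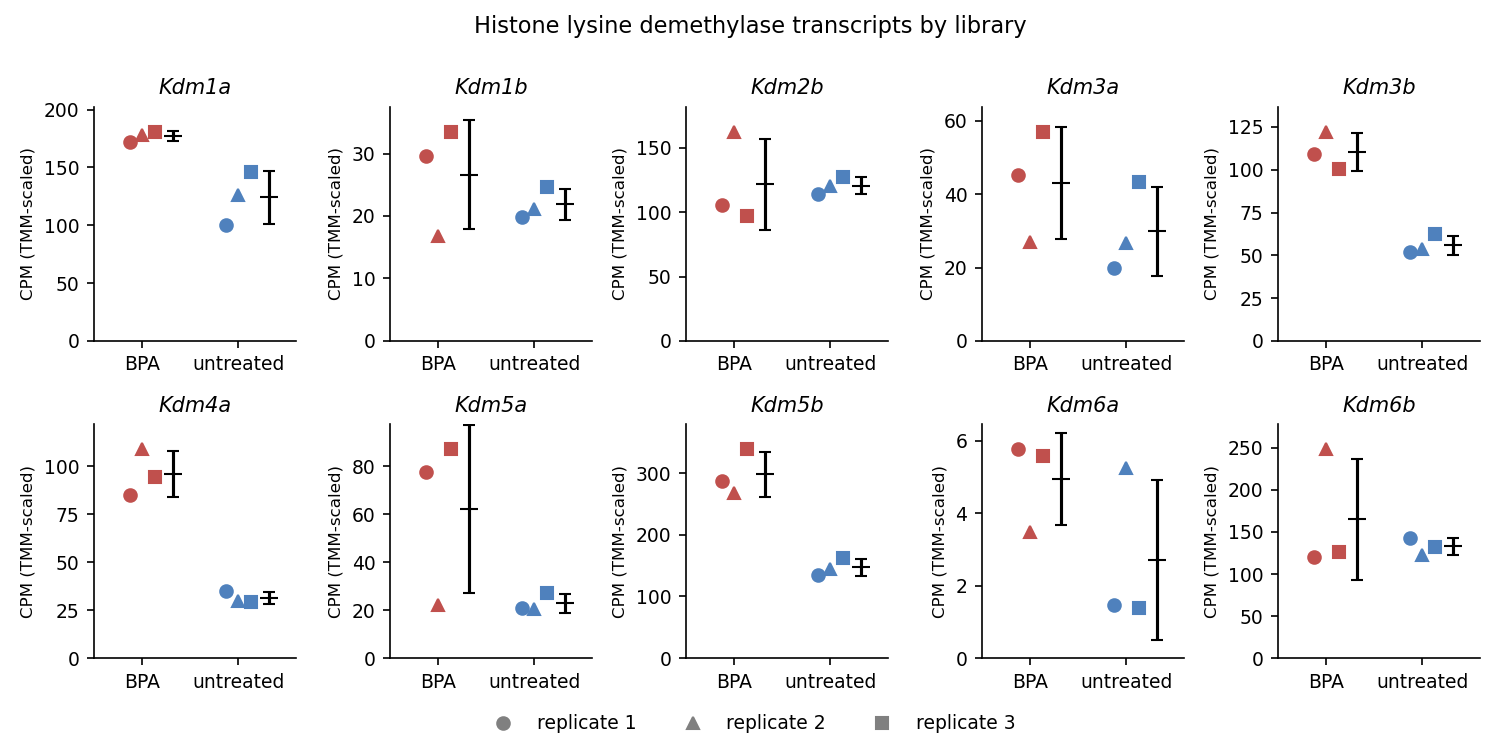
Normalised expression of each demethylase in CPM (vertical axes, from 0) in the 3 BPA libraries (red, left) and the 3 untreated libraries (blue, right), with the replicate number by symbol and the group mean ± SD in black. Kdm3b, Kdm4a and Kdm5b were clearly apart in all libraries, whereas BPA replicate 2 (triangle) lay among the untreated libraries for Kdm5a at 22.1 CPM.

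Kdm4a showed the largest fold change of the 10 with all libraries. Kdm5a was above it without BPA replicate 2 (1.85, against 1.52 for Kdm4a on the log2 scale) and without untreated replicate 3 (1.66, against 1.61), and Kdm6a without untreated replicate 2 (1.79, against 1.59). Kdm4a encodes a demethylase of trimethylated lysines 9 and 36 of histone H3 (ENSMUSG00000033326, chromosome 4, 118136957 to 118180043, minus strand, mm10). Its level was 84.9, 109 and 94.5 CPM in BPA replicates 1 to 3, against 34.8, 29.6 and 29.3 CPM in untreated replicates 1 to 3. The lowest BPA library was above the highest untreated one. The group means were 96.1 ± 12.1 CPM in BPA and 31.3 ± 3.12 CPM in untreated cultures (SD, n = 3 each; log2 fold change 1.62, SE 0.20, edgeR adjusted p = 0.00046). Kdm4a passed under every alternative run, with each library left out included.

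Kdm5b is the lysine 4 demethylase also known as JARID1B (ENSMUSG00000042207, chromosome 1, 134560171 to 134635285, plus strand). It had 288, 267 and 338 CPM in BPA replicates 1 to 3, against 135, 145 and 162 CPM in untreated replicates 1 to 3. The groups did not overlap, and it had the highest counts of the 10 genes in each BPA library. Its means were 298 ± 36.8 CPM in BPA and 147 ± 13.5 CPM in untreated cultures (SD, n = 3 each; log2 fold change 1.02, SE 0.16, edgeR adjusted p = 0.0018). The fold change was 0.54 (SE 0.11, edgeR adjusted p = 0.0054) once GC content and gene length were corrected for in every library.

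The 250 bases before the RefSeq start of Kdm4a and of Kdm5b are shown because these members rose in every BPA library and passed without each library in turn. Kdm1a is set beside them as the only member window found to hold TGATGNAA. The sequences are from RefSeq, build GRCm38.p6, read 5′ to 3′ on the gene's strand. They lie at chr4:118180044-118180293 (minus strand), chr1:134559928-134560177 (plus strand) and chr4:136602724-136602973 (minus strand). Capitals mark ACGTG, the core letters bound by hypoxia-inducible factors, and TGATGNAA, the letters of the amino acid response element bound by ATF4, each searched on both strands.
Kdm4a: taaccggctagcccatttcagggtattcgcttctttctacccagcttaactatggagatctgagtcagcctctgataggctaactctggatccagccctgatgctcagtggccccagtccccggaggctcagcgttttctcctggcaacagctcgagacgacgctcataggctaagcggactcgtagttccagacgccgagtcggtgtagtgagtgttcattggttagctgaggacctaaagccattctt
Kdm5b: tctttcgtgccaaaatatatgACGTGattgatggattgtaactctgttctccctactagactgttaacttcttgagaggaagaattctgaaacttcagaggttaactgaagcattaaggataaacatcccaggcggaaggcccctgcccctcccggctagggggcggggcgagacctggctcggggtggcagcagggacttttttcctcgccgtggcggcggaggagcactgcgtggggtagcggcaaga
Kdm1a: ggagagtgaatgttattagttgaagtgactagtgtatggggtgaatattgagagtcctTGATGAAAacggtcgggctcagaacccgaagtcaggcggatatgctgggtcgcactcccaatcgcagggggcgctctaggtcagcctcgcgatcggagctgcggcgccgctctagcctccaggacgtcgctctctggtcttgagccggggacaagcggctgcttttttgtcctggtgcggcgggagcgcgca
The Kdm4a window held neither motif. The Kdm5b window held ACGTG once and the Kdm1a window TGATGNAA once. Of 32851 such windows of all genes, 16.6% held ACGTG, 3.45% held TGATGNAA and 32.7% held the GC box GGGCGG. Windows were used for 7 of the 10 members, 12 windows in all. ACGTG stood in 2 of the 12 (Kdm5b and Kdm6a), TGATGNAA in 1 and GGGCGG in 8. Kdm2b and Kdm3a each gave several windows, some of them overlapping, so the 12 are not separate promoters. The dinucleotide CG occurred 12 times in the Kdm4a window, 13 times in that of Kdm5b and 21 times in that of Kdm1a, and the median of all windows was 6. Such matches describe the letters only. Kdm5a and Kdm6b had no window in the table used. Kdm3b was left out of the window search, so whether it had a window there is not reported.

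Kdm5a, the paralogue of Kdm5b that also acts on lysine 4 (ENSMUSG00000030180, chromosome 6, 120364124 to 120444574), was split within the BPA group. It had 77.6, 22.1 and 87.1 CPM in BPA replicates 1 to 3, against 20.8, 20.4 and 27.3 CPM in untreated replicates 1 to 3. BPA replicates 1 and 3 were far above every untreated library, and BPA replicate 2 lay within the untreated range. Kdm5a passed as higher over all libraries (62.3 ± 35.1 CPM in BPA and 22.8 ± 3.87 CPM in untreated cultures, SD, n = 3 each; log2 fold change 1.45, SE 0.41, edgeR adjusted p = 0.040). Without BPA replicate 2 the log2 fold change was 1.85 (SE 0.20, edgeR adjusted p = 9.2e-05). The call was lost without any other single library (edgeR adjusted p = 0.0999 to 0.165), in limma-voom (0.147), when scaled by total counts alone (edgeR adjusted p = 0.0505) and under the correction for base composition and length (log2 fold change 0.78, edgeR adjusted p = 0.0712).

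The KDM3 enzymes remove mono- and dimethyl groups from lysine 9. Kdm3b (ENSMUSG00000038773, chromosome 18, 34777008 to 34839370) had 109, 122 and 100.2 CPM in BPA replicates 1 to 3, against 52.0, 53.4 and 62.3 CPM in untreated replicates 1 to 3. The groups did not overlap, and the BPA mean was close to double the untreated one (110.4 ± 11.0 CPM in BPA and 55.9 ± 5.54 CPM in untreated cultures, SD, n = 3 each; log2 fold change 0.98, SE 0.18, edgeR adjusted p = 0.0057). Its call was lost without untreated replicate 1 (edgeR adjusted p = 0.0552, log2 fold change 0.93). In GENCODE vM21, Kdm3b has 14095 exon bases, against a length of 7112 bases in the deposited data, and its locus differs. Shares taken from vM21 may therefore not hold for the gene model that was counted. Of the 50-base windows of its vM21 transcripts, 24.1% occur in transcripts of other genes. In that release, 24.6% of the exon bases of Kdm3b overlap the long non-coding RNA gene Gm26538 on the other strand. As the library kit does not mark strand, reads from there cannot be told apart. Kdm3a, which mice need to complete spermatid maturation (chromosome 6, 71588972 to 71632990), had 45.3, 26.9 and 56.96 CPM in BPA replicates 1 to 3, against 19.8, 26.6 and 43.3 CPM in untreated replicates 1 to 3. The groups overlapped, and the difference did not pass (log2 fold change 0.53, SE 0.34, edgeR adjusted p = 0.37). It was 0.06 after the GC and length correction.

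Kdm1a encodes LSD1, which removes mono- and dimethyl groups from lysine 4 within the CoREST corepressor complex (ENSMUSG00000036940, chromosome 4, 136550540 to 136602723). It had 172, 178 and 181 CPM in BPA replicates 1 to 3, against 100.4, 126 and 146 CPM in untreated replicates 1 to 3. All BPA libraries lay above all untreated ones. The test over all libraries did not pass (177 ± 4.48 CPM in BPA and 124 ± 22.7 CPM in untreated cultures, SD, n = 3 each; log2 fold change 0.51, SE 0.17, edgeR adjusted p = 0.079). Kdm1a passed as higher in DESeq2 (adjusted p = 0.0351), when scaled by total counts alone (edgeR adjusted p = 0.0354), without BPA replicate 2 (0.0351) and without untreated replicate 3 (0.0491). The range over all alternatives was 0.0351 to 0.30. Kdm1b, or LSD2, which mouse oocytes need to set maternal imprints (chromosome 13, 47043499 to 47084613), had 29.6, 16.8 and 33.4 CPM in BPA replicates 1 to 3, against 19.8, 21.2 and 24.7 CPM in untreated replicates 1 to 3. BPA replicate 2 was the lowest of the 6 libraries. The difference did not pass (log2 fold change 0.28, SE 0.31, edgeR adjusted p = 0.62) and had the opposite sign, -0.14, after the GC and length correction. In GENCODE vM21, whose locus for Kdm1b differs from the deposited one, Dek overlaps 9.19% of the exon bases of Kdm1b on the other strand.

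Kdm2b encodes a lysine 36 demethylase that brings a variant Polycomb complex to unmethylated CpG islands (ENSMUSG00000029475, chromosome 5, 122870665 to 122989823). It had 105, 162 and 97.1 CPM in BPA replicates 1 to 3, against 114, 121 and 127 CPM in untreated replicates 1 to 3. BPA replicate 2 was above every untreated library and the other BPA libraries were below every one. Over all libraries the log2 fold change was 0.01 (SE 0.20, edgeR adjusted p = 0.99), and without BPA replicate 2 it was -0.25 (SE 0.13, edgeR adjusted p = 0.21). In GENCODE vM21, other genes overlap 8.74% of the exon bases of Kdm2b, among them Rnf34 on the other strand. Of the 50-base windows of its transcripts, 12.5% occur in transcripts of other genes.

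The KDM6 enzymes remove methyl groups from lysine 27, the mark placed by Polycomb. Kdm6b, also called JMJD3 and known for rapid induction in inflammation (ENSMUSG00000018476, chromosome 11, 69398508 to 69413675), had 121, 248 and 126 CPM in BPA replicates 1 to 3, against 143, 123 and 132 CPM in untreated replicates 1 to 3. Only BPA replicate 2 lay outside the untreated range by a wide margin. The log2 fold change was 0.31 (SE 0.25, edgeR adjusted p = 0.47) over all libraries and -0.10 (SE 0.13, edgeR adjusted p = 0.63) without BPA replicate 2. Kdm6a, the X-linked gene of UTX (ENSMUSG00000037369, chromosome X, 18162575 to 18279936), was the rarest member, with 88, 70 and 137 reads counted in BPA replicates 1 to 3, against 27, 67 and 19 in untreated replicates 1 to 3. Scaled, this was 5.76, 3.47 and 5.59 CPM in BPA and 1.48, 5.26 and 1.38 CPM in untreated replicates 1 to 3. Untreated replicate 2 lay within the BPA range. The difference did not pass (log2 fold change 0.87, SE 0.71, edgeR adjusted p = 0.49). Its log2 fold change was 0.39 after the GC and length correction, and 0.58 to 1.79 with 1 library left out in turn, highest without untreated replicate 2.

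**Figure D2:**
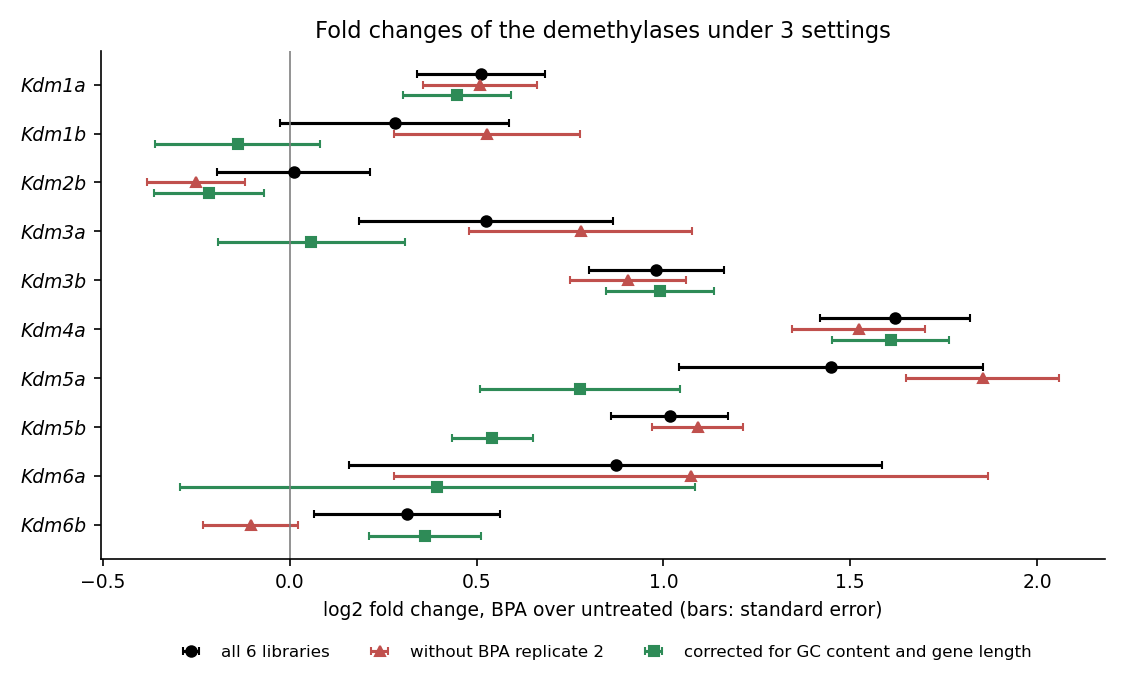
Log2 fold change of BPA over untreated cultures for each demethylase (horizontal axis) with its standard error, from all 6 libraries (black circles), without BPA replicate 2 (red triangles) and with GC content and gene length corrected for (green squares). Kdm4a and Kdm3b hardly moved between the settings (1.52 to 1.62 and 0.90 to 0.99), whereas Kdm5a ranged from 0.78 to 1.85.

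The members for which BPA replicate 2 parted from the other BPA libraries differed in base composition. Relative to the mean of BPA replicates 1 and 3, BPA replicate 2 was at a log2 ratio of -1.90 for Kdm5a, -0.93 for Kdm3a, -0.91 for Kdm1b and -0.71 for Kdm6a, whose longest transcripts have a GC content of 42.5% to 45.5%. It was at 1.01 for Kdm6b and 0.68 for Kdm2b, with GC contents of 59.6% and 52.6%. The other members, Kdm1a, Kdm3b, Kdm4a and Kdm5b, lay between -0.23 and 0.28. Over the 10 genes, Spearman's rho of this ratio with GC content was 0.88, and over 13273 tested genes it was 0.63. These genes share the same 3 libraries, so both values only describe them. The median ratio of all genes was -0.89 for a GC content of 40% to 45% and 0.47 for 55% to 60%. Kdm5a was thus further down, and Kdm6b further up, than the median of genes of like composition. The fold changes of BPA over untreated had a rho of -0.07 with GC content over the 10 genes and -0.25 over all tested genes. With gene length the rho was 0.15 over the 10 genes and 0.21 over all. BPA replicates 1 and 3 also ran with GC content when set against the untreated mean. The median log2 ratio of their mean to it was 0.62 for a GC content of 40% to 45% and -0.32 for 55% to 60%. For BPA replicate 2 against the untreated mean, the medians were -0.28 and 0.16. What makes BPA replicate 2 differ from BPA replicates 1 and 3 was not tested.

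**Figure D3:**
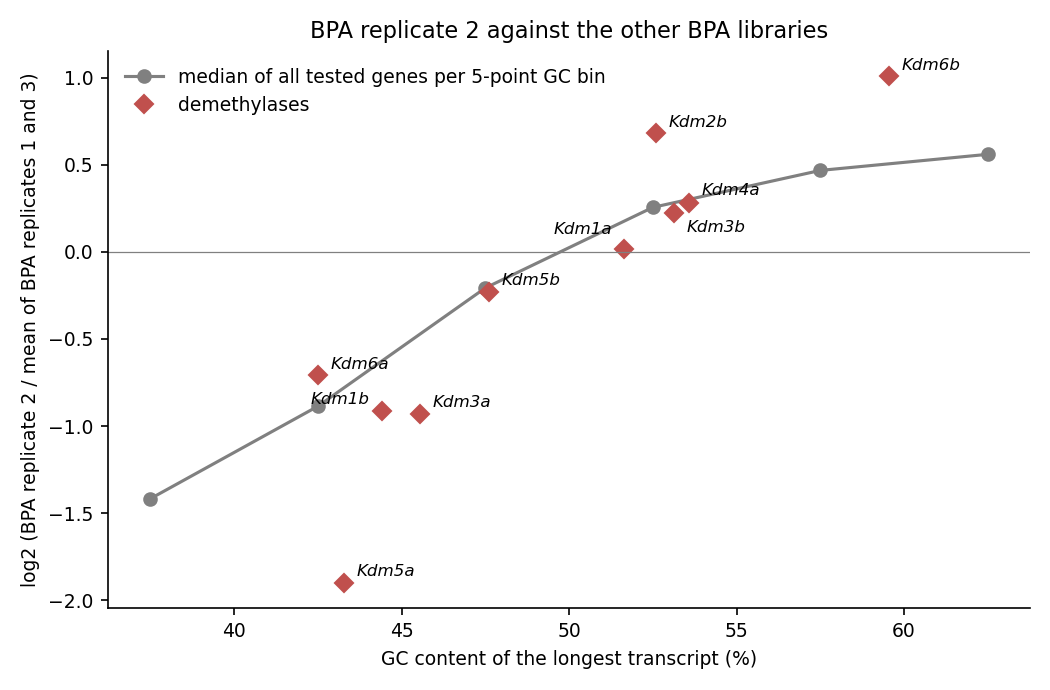
Log2 ratio of BPA replicate 2 to the mean of BPA replicates 1 and 3 (vertical axis) against GC content of the longest transcript in percent (horizontal axis), for the 10 demethylases (red) and as the median of all tested genes in bins of 5 percentage points (grey line). Kdm5a (-1.90) and Kdm6b (1.01) lie at the ends, and Kdm1a, Kdm3b, Kdm4a and Kdm5b near 0.

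Levels can be compared between genes only per length, for which the deposited FPKM values (counts scaled by gene length and library total) were used. Under BPA, Kdm1a (23.5 ± 1.97 FPKM) and Kdm6b (23.0 ± 7.92) came first, then Kdm3b (16.0 ± 0.476), Kdm5b (16.0 ± 3.12), Kdm4a (10.8 ± 0.766), Kdm2b (6.61 ± 1.32), Kdm5a (3.68 ± 2.22), Kdm3a (3.48 ± 1.45), Kdm1b (3.18 ± 1.24) and Kdm6a (0.559 ± 0.180). In untreated cultures the order was Kdm6b (17.6 ± 1.41 FPKM), Kdm1a (15.3 ± 3.13), Kdm3b (7.59 ± 0.953), Kdm5b (7.32 ± 0.854), Kdm2b (6.19 ± 0.469), Kdm4a (3.28 ± 0.295), Kdm1b (2.39 ± 0.334), Kdm3a (2.22 ± 0.956), Kdm5a (1.22 ± 0.240) and Kdm6a (0.278 ± 0.223; all SD, n = 3). Neighbours whose ranges overlapped were Kdm6b with Kdm1a, Kdm3b with Kdm5b, Kdm5b with Kdm2b, Kdm1b with Kdm3a and Kdm3a with Kdm5a in untreated cultures. Under BPA they were Kdm1a with Kdm6b, Kdm3b with Kdm5b, Kdm5a with Kdm3a and Kdm3a with Kdm1b. Kdm4a thus stood below Kdm2b in every untreated library and above it in every BPA library. These levels rest on the authors' gene lengths. With the exon lengths of GENCODE vM21 in their place, an alternative chosen after seeing the data, Kdm1a and Kdm6b still led and Kdm6a was still last in both groups, but Kdm3b came to rank 6 under BPA and 7 in untreated cultures. Kdm5a was at rank 9 in both groups with those lengths, whereas with the authors' lengths it was at rank 7 under BPA and 9 in untreated cultures.

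Ratios of related genes within a library do not depend on how libraries are scaled. For Kdm4a over Kdm4b, its paralogue, the log2 FPKM ratio was 2.07, 2.12 and 2.48 in BPA replicates 1 to 3, against 0.10, 0.29 and -0.13 in untreated replicates 1 to 3. The groups were apart by 2.14, with means of 2.22 ± 0.226 in BPA and 0.08 ± 0.211 in untreated cultures (SD, n = 3 each). In the exact two-sided permutation test p was 0.1, the smallest that 3 against 3 samples allow, and the adjusted p over 6 pairs was 0.6. Kdm4b itself was at 19.4 ± 3.80 CPM in BPA and 27.8 ± 4.40 CPM in untreated cultures (SD, n = 3 each; log2 fold change -0.52, edgeR adjusted p = 0.28).

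The groups overlapped in the other 5 ratios, with exact permutation p from 0.2 to 0.9. The log2 ratio of Kdm5b to Kdm5a was 1.79, 3.50 and 1.86 in BPA replicates 1 to 3, against 2.60, 2.73 and 2.47 in untreated replicates 1 to 3. The untreated libraries lay close together, and the BPA libraries fell on both sides of them. The log2 ratio of Kdm6b to Kdm6a was 4.74, 6.52 and 4.85 in BPA replicates 1 to 3, against 6.95, 4.90 and 6.94 in untreated replicates 1 to 3. For Kdm1b over Kdm1a, Kdm2b over Kdm2a and Kdm3a over Kdm3b the difference of BPA minus untreated means was -0.30, -0.50 and -0.45.

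**Figure D4:**
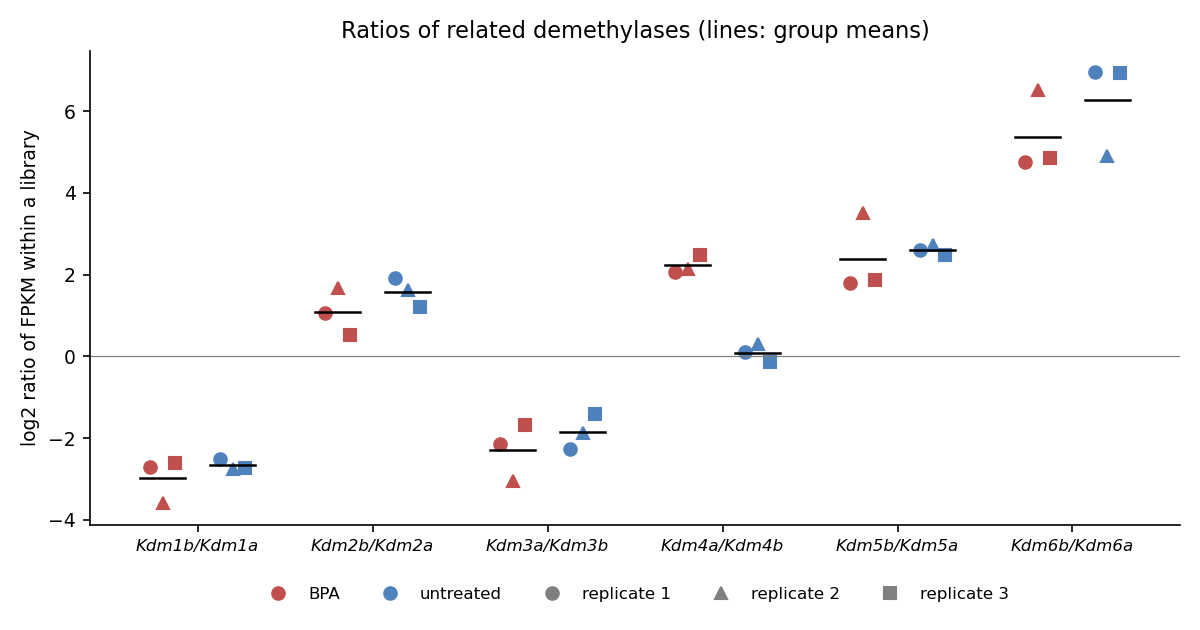
Log2 ratio of FPKM of 2 related demethylases within each library (vertical axis) for 6 pairs (horizontal axis), with BPA libraries in red to the left of untreated libraries in blue, replicate number by symbol and group means as lines. For Kdm4a over Kdm4b alone the BPA libraries (2.07 to 2.48) were apart from the untreated ones (-0.13 to 0.29).

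Of the 16 other histone demethylases and JmjC proteins listed, all tested, 0 passed in either direction in edgeR (median log2 fold change 0.25). Jmjd6 passed as lower in DESeq2, in limma-voom, with DESeq2 size factors in edgeR, with a replicate block, under the GC and length correction and without BPA replicate 2, and 1 other gene passed as higher without the low-count filter. Jmjd6, a JmjC lysyl hydroxylase, was the most abundant at 199 ± 7.497 CPM in BPA and 274 ± 17.7 CPM in untreated cultures (SD, n = 3 each; log2 fold change -0.46, edgeR adjusted p = 0.055). The ribosomal oxygenase gene Riox1, listed in the table as 2410016O06Rik, was at 91.0 ± 26.4 CPM in BPA and 81.1 ± 5.04 CPM in untreated cultures. Kdm2a was at 65.7 ± 11.2 CPM in BPA and 48.4 ± 14.7 CPM in untreated cultures (log2 fold change 0.44, edgeR adjusted p = 0.30).

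Partners of the demethylases changed in a few cases. Among the tested partners of LSD1 and LSD2, Phf21a, whose protein reads unmethylated lysine 4, rose (33.3 ± 6.81 CPM in BPA and 13.1 ± 4.06 CPM in untreated cultures, SD, n = 3 each; log2 fold change 1.35, edgeR adjusted p = 0.019). None of these partners fell in edgeR, DESeq2 or limma-voom. Phf21a lost the threshold without BPA replicate 1 or 3 or untreated replicate 1 or 2 (edgeR adjusted p up to 0.104). Of 9 partners of KDM2B, Rnf2, the ubiquitin ligase of Polycomb, rose (32.3, 6.74 and 20.5 CPM in BPA replicates 1 to 3, against 2.41, 3.92 and 1.31 CPM in untreated replicates 1 to 3; log2 fold change 2.96, edgeR adjusted p = 0.0090). It lost the threshold in limma-voom (adjusted p = 0.09) and without BPA replicate 1, untreated replicate 1 or untreated replicate 3 (edgeR adjusted p = 0.0633, 0.0639 and 0.0512). Of all tested genes, 4.37% passed as higher in edgeR. Without BPA replicate 2 the KDM2B partners had 2 higher and 1 lower, where 1207 and 1600 of all 13708 tested genes passed. After the GC and length correction the counts were also 2 and 1, where 900 and 1234 of all 13287 passed.

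Of 14 tested lysine 4 methyltransferases and COMPASS subunits, which place marks that KDM1 and KDM5 enzymes remove, 0 rose and 1 fell, where 4.37% of all tested genes passed as higher and 6.28% as lower. The gene that fell was the small subunit Dpy30 (20.8 ± 4.06 CPM in BPA and 40.2 ± 8.84 CPM in untreated cultures, SD, n = 3 each; log2 fold change -0.95, edgeR adjusted p = 0.044). The Dpy30 call ended when any library except BPA replicate 2 was left out (edgeR adjusted p = 0.0902 to 0.193), with scaling by library size (0.0603) and under the correction for base composition and length (0.128). Without BPA replicate 2 the list had 3 higher and 3 lower, where 1207 and 1600 of all 13708 tested genes passed as higher and lower. Of 9 lysine 27 and lysine 9 methyltransferases 0 passed in edgeR with all libraries and in limma-voom. In DESeq2 2 passed as higher, where 7.06% of all tested genes did. Without BPA replicate 2, edgeR called 3 higher and 1 lower, against the same 1207 and 1600 of all 13708 tested genes. The most abundant, the lysine 9 methyltransferase genes Ehmt2 and Suv39h1, were at 947 ± 255 and 167 ± 24.7 CPM in BPA, against 1033 ± 57.5 and 192 ± 9.66 CPM in untreated cultures. Ehmt2 passed as lower without BPA replicate 2 (log2 fold change -0.37, edgeR adjusted p = 0.0091). Suv39h1 passed as lower after the GC and length correction (log2 fold change -0.41, edgeR adjusted p = 0.037).

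Among 21 genes for the cofactors of the demethylases, 1 rose and 2 fell, where 4.37% of all tested genes passed as higher and 6.28% as lower. Without BPA replicate 2 the counts were 2 and 6, where 1207 and 1600 of all 13708 tested genes passed. With base composition and length corrected for, the counts were 2 and 5, where 900 and 1234 of all 13287 passed. Gpt2, the mitochondrial alanine transaminase that makes 2-oxoglutarate, rose to 165 ± 19.0 CPM in BPA, against 14.2 ± 5.73 CPM in untreated cultures (SD, n = 3 each; log2 fold change 3.53, SE 0.28, edgeR adjusted p = 1.4e-05). The ferritin light chain gene Ftl1, which has processed copies in the genome so that its counts are uncertain, fell (3081 ± 441 CPM in BPA and 5147 ± 372 CPM in untreated cultures; log2 fold change -0.74, edgeR adjusted p = 0.0034). The succinate dehydrogenase subunit gene Sdhb fell too (296 ± 28.9 CPM in BPA and 470.4 ± 10.8 CPM in untreated cultures; -0.67, edgeR adjusted p = 0.010), and lost the threshold without BPA replicate 1 or untreated replicate 1 or 2 (edgeR adjusted p up to 0.0757).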

How the data were processed

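Per the labels' protocols, the miRNeasy kit gave the RNA and the TruSeq RNA v2 kit the libraries. TopHat2 2.0.9, HTSeq and mm10 are named in the submitters' processing notes, but no annotation release or strand setting. For every sample the deposited table has a column of raw counts and one of FPKM, both computed by the authors. The counts were used for the tests of single genes. The FPKM are counts divided by a fixed gene length and the summed counts (largest relative deviation 9.2e-04). They were used for levels between genes, for the ratios of related genes with their permutation tests, and for lengths.

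Counts were filtered with filterByExpr, scaled by TMM and tested for BPA against untreated in an unblocked quasi-likelihood model (edgeR 4.0.16, R 4.3.3). The SE is the log2 fold change over the square root of F. Alternatives were DESeq2 1.42.0, limma-voom (limma 3.58.1), other scalings and filters, an FDR of 0.01, a replicate block, each library left out, and a lowess correction (span 0.3) for GC content and length. GC content came from the longest GENCODE vM21 transcript. Exact permutation tests used scipy 1.17.1. The fits were tested on simulated data. CPM are TMM-scaled. Named genes were all members, both genes of each related pair, and from every other list up to 4 past the threshold or, with none, the 2 most abundant. One gene that this rule names is not reported here. The members and lists were chosen with earlier results of these data known.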

Additional observations from a re-analysis of the deposited data

How the results depend on the processing

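Of 13287 genes tested, 1415 passed the threshold. The count was 2166 in DESeq2, 2134 after the GC and length correction, 477 at an FDR of 0.01, and 444 to 2807 with 1 library left out in turn. Among all genes that passed, the share higher under BPA was 41.0%, and 51.4% with scaling by library size alone, under which the all-gene median was 0.21 on the log2 scale. The number of demethylases that rose was 2 to 5 with 1 library left out in turn and 3 to 5 under the other alternatives, and the number that fell was 0 under each alternative run. Kdm2b changed sign around 0: its log2 fold change was -0.0082 in edgeR with DESeq2 size factors and in DESeq2, -0.024 in limma-voom, -0.027 with a replicate block, -0.22 after the GC and length correction, and -0.25 to 0.15 with 1 library left out. Kdm1b was at -0.14 after that correction, and Kdm6b at -0.10 to 0.50 with 1 library left out. The difference of the log2 ratio of Kdm1b to Kdm1a was -0.48 to 0.0064, and that of Kdm5b to Kdm5a -0.77 to 0.078, with 1 library left out. The cause of these shifts was not tested.

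The replicate numbers were not taken as pairs, since the labels name no pairing. Deviations from the group means correlated between same-numbered libraries at -0.02, 0.06 and 0.07. For replicates 2 and 3 the same-numbered libraries correlated best with each other, and for replicate 1 they did not. Correlations this weak do not settle whether the samples were paired. With a replicate block 1706 genes passed, 4 of the 10 demethylases among them as higher. The common biological coefficient of variation was 0.438, and Kdm6a had 19 to 137 counts in a library. A correction for GC content also removes any effect of BPA that runs with GC content.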
